A study of Mus musculus with 15 samples.

Results

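Expression of 10 genes of mitochondrial biogenesis and creatine phosphate metabolism was followed in bone marrow-derived macrophages (BMDMs) of mice, cells from which osteoclasts arise when they are given RANKL, the ligand of receptor activator of NF-κB, and which lipopolysaccharide (LPS) activates as inflammatory cells. The genes were taken by name (*Ppargc1a*, *Ppargc1b*, *Pprc1*, *Esrra*, *Nrf1*, *Tfam*, *Tfb2m*, *Polrmt*, *Ckb* and *Ckmt1*), and all 10 were among the 20089 genes listed. There were 15 RNA-seq samples in 5 groups of 3, all of them BMDMs of wild-type C57BL/6 mice in macrophage colony-stimulating factor (M-CSF): control without either stimulus, RANKL for 4 h, RANKL for 3 d, LPS for 4 h and LPS for 3 d. The series' design text gives 3 days of M-CSF, the study's methods a longer time. No time in culture is given for control apart from this, so 3 d of stimulus and 3 d of further culture cannot be told apart in comparisons with control. The study's culture methods give an age of a few weeks for the mice of its knockout line and their wild-type littermates, and do not say whether it holds for these samples. Whether the replicates came from separate animals is not given in the sources used here, so p-values measure the spread between these samples only.

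Peroxisome proliferator-activated receptor γ coactivators are proteins without DNA binding of their own that raise transcription at genes bound by nuclear factors such as estrogen-related receptor α (*Esrra*) and nuclear respiratory factor 1 (*Nrf1*). Among the targets of those factors are the nuclear genes for the mitochondrial transcription machinery: mitochondrial RNA polymerase (*Polrmt*) reads the mitochondrial genome with the help of TFAM, which binds and packs mitochondrial DNA, and TFB2M, which opens the promoter. Creatine kinases pass phosphate between ATP and creatine, CKB in the cytosol and CKMT1 between the mitochondrial membranes. Osteoclasts are rich in mitochondria, and both PGC-1β, the product of *Ppargc1b*, and CKB are known from osteoclast differentiation.

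In the GENCODE M21 annotation of GRCm38, all 10 are protein-coding genes. *Ppargc1a* lies on chromosome 5 from 51454250 to 51567726, *Pprc1* on chromosome 19 from 46044886 to 46072915 and *Esrra* on chromosome 19 from 6910977 to 6921813. *Nrf1* occupies chromosome 6 from 30047988 to 30153458. Of the mitochondrial transcription genes, *Tfam* and *Polrmt* are both on chromosome 10, from 71225464 to 71238280 and from 79736123 to 79746581, and *Tfb2m* is on chromosome 1 from 179528055 to 179546267. *Ckb* lies on chromosome 12 from 111669361 to 111672338 and *Ckmt1* on chromosome 2 from 121357714 to 121363737. Exons of *Pprc1*, *Esrra* and *Ckmt1* share positions with exons of *Ldb1*, *Trmt112* and *Strc* on the other strand, and strand-specific counting is not stated, so reads from such shared positions cannot be told apart.

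RefSeq promoter windows (GRCm38.p6, 250 bases before and 50 after a transcription start) were on hand for 9 of the 10 genes. Printed here are stretches before the start of *Polrmt*, which fell furthest of these genes after 4 h of LPS, and of *Ckb*, the abundant creatine kinase gene, called higher with RANKL at 3 d. Capitals mark the letters searched on either strand: GCGCATGC (part of the NRF1 consensus), CCGGAAG (the core of ETS and GABP sites), TATAAA and CCAAT, the last pair added after the sequences had been read. The *Polrmt* stretch is chr10:79746582-79746831 and the *Ckb* stretch chr12:111672339-111672588, both on the minus strand, and neither holds an exon of GENCODE. Starts below are those of RefSeq.
Polrmt: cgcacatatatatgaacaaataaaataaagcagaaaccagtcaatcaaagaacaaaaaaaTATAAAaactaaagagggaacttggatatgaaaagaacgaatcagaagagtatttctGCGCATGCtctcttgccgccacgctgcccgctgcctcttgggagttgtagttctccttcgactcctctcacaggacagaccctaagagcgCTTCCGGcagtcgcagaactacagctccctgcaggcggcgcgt
Ckb: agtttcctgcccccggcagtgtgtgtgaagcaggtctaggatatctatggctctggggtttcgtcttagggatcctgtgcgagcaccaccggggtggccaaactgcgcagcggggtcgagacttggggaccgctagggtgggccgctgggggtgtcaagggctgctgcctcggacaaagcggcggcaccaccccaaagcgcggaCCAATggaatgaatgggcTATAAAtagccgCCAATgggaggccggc
In *Polrmt*, GCGCATGC begins 133 bases and the reverse complement of CCGGAAG 43 bases before the start. GCGCATGC occurred in 2.71% and CCGGAAG in 8.86% of all 32851 windows, and among the other genes GCGCATGC was found in *Esrra* (34 bases before the start, reversed) and *Tfb2m* (after the start) and CCGGAAG in *Tfam*, whose RefSeq window lies mostly within GENCODE exons (236 of the 250 bases before the start). *Ckb* holds TATAAA 28 bases before the start, with CCAAT at 46 and 16 bases. TATAAA was also found in *Polrmt* (190 bases before the start) and, reversed, in *Nrf1* and *Ckmt1* (96 and 31 bases). CCAAT was also found, reversed, in *Nrf1* and *Ckmt1* (83 and 242 bases before a start). TATAAA occurred in 13.6% and CCAAT in 37.4% of windows. The estrogen-related receptor element TCAAGGTCA (0.423% of windows) and the cAMP response element TGACGTCA (1.79%) were in none of the windows of these genes. These matches are descriptions of letters, not of sites in use.

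Values are FPKM, fragments scaled to exon length and library size, as deposited. Between 18306184 and 20330207 fragments per sample stood behind the listed genes. Changes were tested with limma on log2(FPKM + 0.1) in 1 fit of all 5 groups over 11743 genes whose mean was 0.1 FPKM or more, and a gene was called changed at a fold above 1.5 or below 0.66 with a Benjamini-Hochberg adjusted p under 0.05. Fold changes and log2 values below carry this added 0.1, so that changes of low genes come out too small, and each comparison with control uses the same 3 control samples. The median of all tested genes moved by −0.52 (log2) in LPS 4 h, 0.16 in RANKL 3 d and less than 0.1 in RANKL 4 h and LPS 3 d. Changes in LPS 4 h are therefore given also after each sample was centred on its median gene, which added 0.57 (log2) to every difference from control in LPS 4 h and took 0.22 from every one in RANKL 3 d.

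The macrophage label was checked against 10 marker genes, none of which was at 0 in any group; their summed FPKM was 7449 to 9136 in control. The sum over 10 osteoclast genes was 155 to 280 FPKM in control and 1721 to 5474 in RANKL 3 d, and that over 9 LPS response genes was 213 to 1049 in control, 14330 to 16090 in LPS 4 h and 11140 to 15590 in LPS 3 d. Genes of other cells moved as well. The sum over 18 stromal genes was 157 to 342 in control and 423 to 1988 in RANKL 3 d, and the sum over 8 neutrophil and progenitor genes was 4759 to 14200 in control, 999 to 4150 in RANKL 3 d and 119 to 1115 in LPS 3 d. Sums of 6 B cell genes (at most 21.3 FPKM) and 6 erythroid genes (at most 14.7) were low. One library stood apart, replicate 3 of LPS 3 d, which correlated with its group at r = 0.942 and 0.954 over genes, against 0.988 between the other two, and had a stromal sum of 515 FPKM against 101 in each of them. For the 10 genes studied, calls in comparisons with LPS 3 d that changed without it are named. Other values of LPS 3 d come from all 3 samples unless stated. In bulk RNA, fewer cells of a type and less RNA per cell cannot be told apart.

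Across the 15 samples the levels of the 10 genes spanned a wide range. *Ckb* had the highest mean, 219.6 FPKM, above 98.1% of the 15636 genes detected, followed by *Esrra* at 19.1 and *Pprc1* at 9.03 FPKM. *Polrmt* (6.07), *Tfam* (5.62), *Tfb2m* (3.56) and *Nrf1* (3.07) were at moderate levels, *Ppargc1b* was at 1.11 and *Ckmt1* at 0.319 FPKM. *Ppargc1a*, the family member best known from brown fat and muscle, was at 0.0125 FPKM, with 0 to 7 fragments per sample. It did not reach the level needed for testing, so 9 of the 10 genes were tested. *Ckmt1* reached it only through RANKL 3 d.

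**Figure D1:**
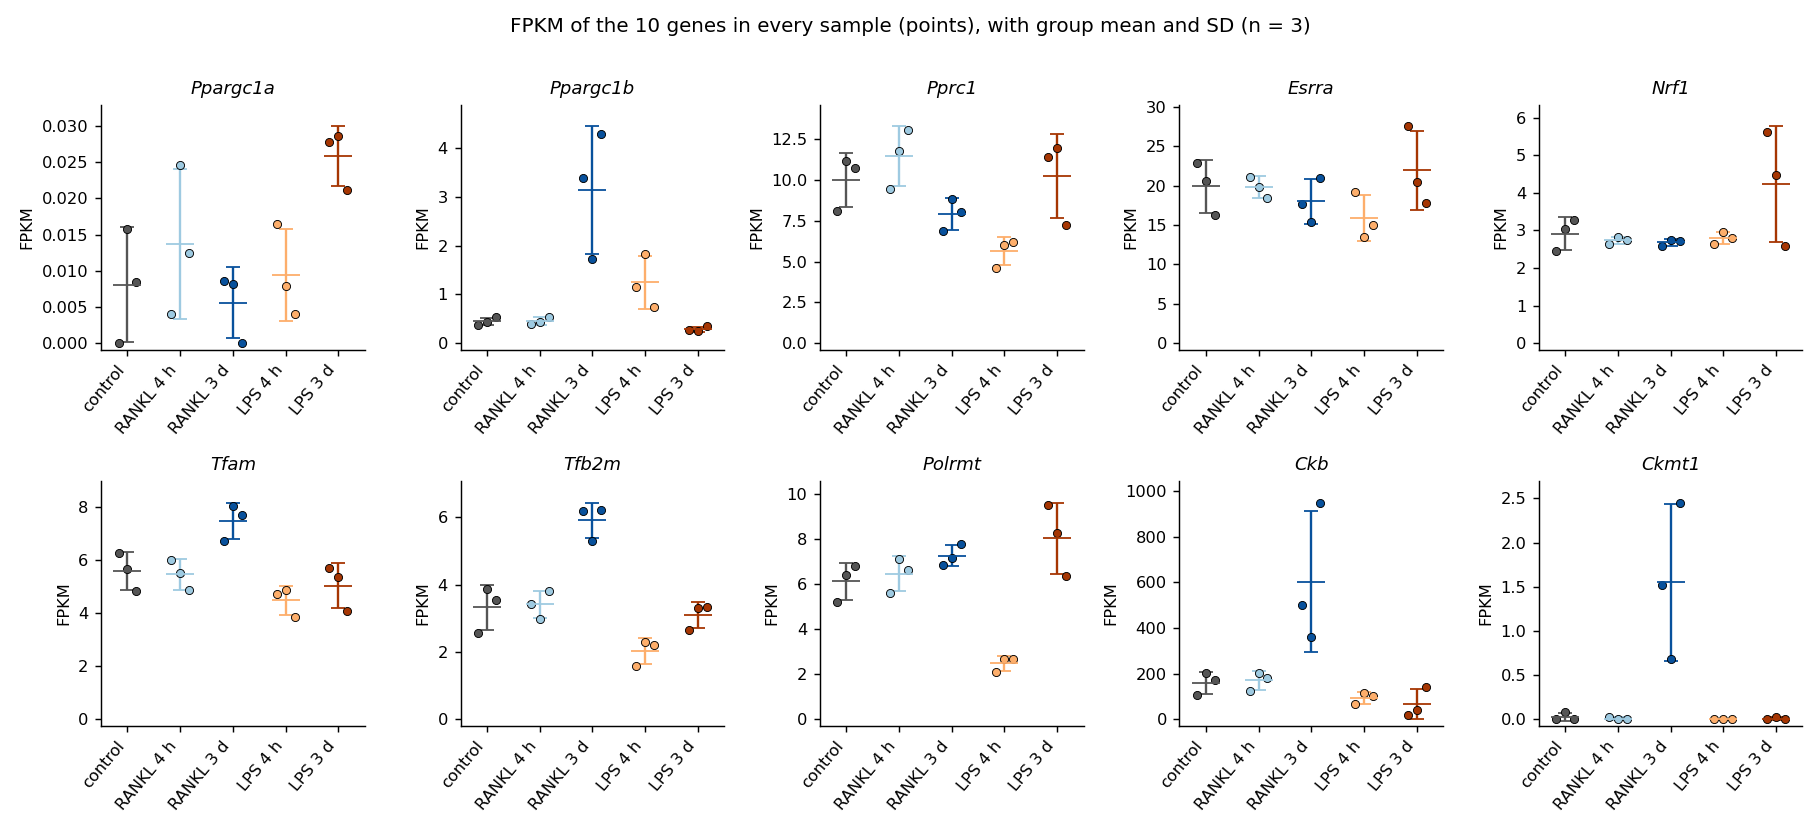
FPKM of each of the 10 genes (y axis, linear, own scale per gene) in the 5 groups (x axis); points are single samples, the horizontal line is the group mean and the bar its SD (n = 3). In RANKL 3 d, *Ppargc1b*, *Tfam*, *Tfb2m*, *Polrmt*, *Ckb* and *Ckmt1* lie above every control sample, though *Tfam* and *Polrmt* were not called. *Ckmt1* was tested only because of its level in RANKL 3 d. In LPS 4 h, *Pprc1*, *Tfb2m* and *Polrmt* lie below every control sample and *Ppargc1b* lies above. The share of all genes without overlap is not given.

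After 4 h of RANKL none of the 9 tested genes was called, against 0.111% of all tested genes called higher and 0.00852% lower. None had an unadjusted p under 0.05, and limma voom on recovered fragment counts called 0 as well. The log2 differences ran from −0.17 (*Ckmt1*) to 0.20 (*Pprc1*), and every one of these genes overlapped between the groups. At 3 d of RANKL, *Ppargc1b*, *Tfb2m* and *Ckb* were called higher and none lower among the 8 genes other than *Ckmt1*, against 16.6% higher and 7.54% lower among all tested genes. *Ckmt1* was higher as well, but it entered the test through RANKL 3 d and is left out of that count. After median centring the same 3 genes were called, and the shares over all tested genes were 9.94% higher and 12.2% lower. After 4 h of LPS, *Ppargc1b* was called higher and *Pprc1*, *Tfb2m* and *Polrmt* lower, where 8.43% of all tested genes were called higher and 39.7% lower. With samples centred on their median gene the calls were *Ppargc1b* higher and *Polrmt* lower, and the shares over all tested genes were 15.9% and 13.0%. At 3 d of LPS, only *Ckb* was called, lower, against 13.0% of tested genes higher and 14.4% lower. Without replicate 3 of LPS 3 d, *Ckb* was again called lower and *Nrf1* was called higher, and the shares over all genes in that fit are not given.

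**Figure D2:**
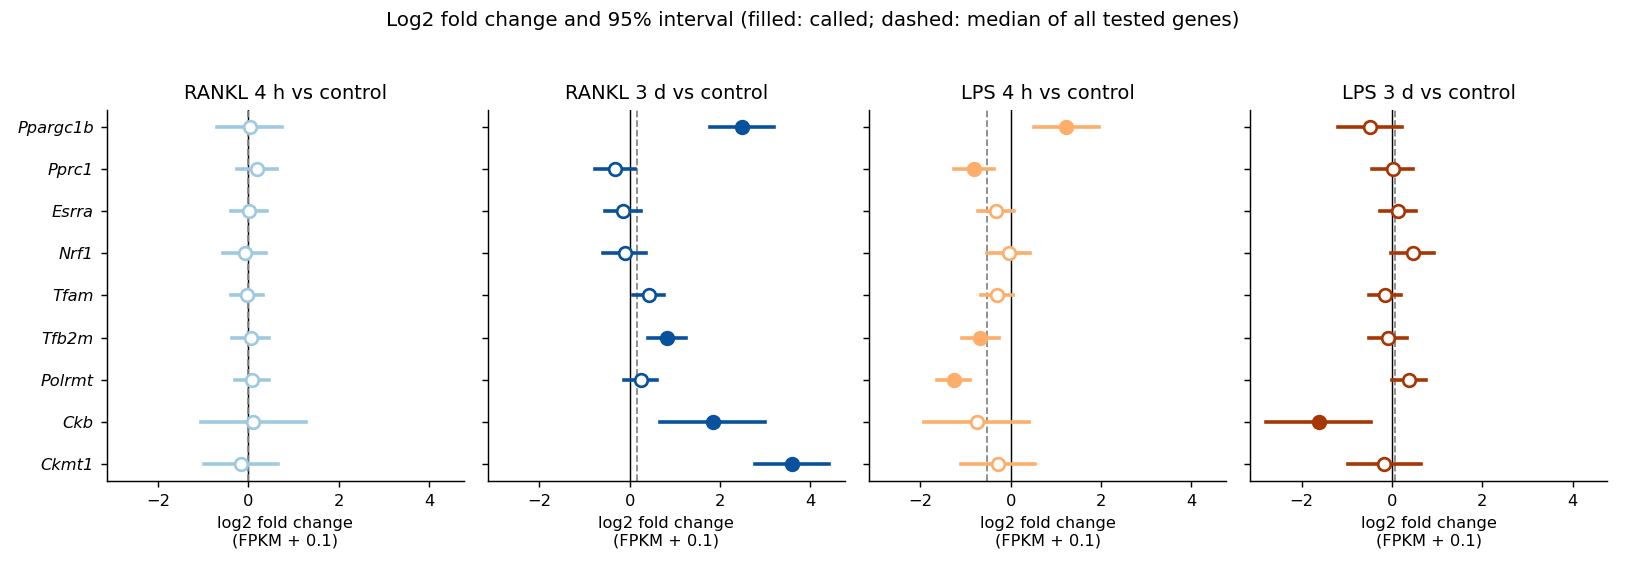
Log2 fold change on the FPKM + 0.1 scale (x axis) of the 9 tested genes (y axis) in the 4 comparisons with control, with 95% intervals from limma; filled circles are called genes and the dashed line is the median of all tested genes. The filled circles in RANKL 3 d all lie to the right of 0, and in LPS 4 h the dashed line lies at −0.52; *Ckmt1* was tested only because of its level in RANKL 3 d.

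Of the coactivators, *Ppargc1b* showed the widest change. Its level was 0.377, 0.429 and 0.531 FPKM in control (93 to 122 fragments) and 0.393, 0.437 and 0.538 in RANKL 4 h. In RANKL 3 d it was 3.39, 1.73 and 4.29 FPKM, so that the lowest of these samples was above the highest control sample. The difference was 5.60-fold (log2 2.49 ± 0.33, SE; limma, adjusted p = 0.00016). LPS at 4 h raised the gene too, to 1.16, 1.82 and 0.752 FPKM, and again no sample overlapped with control. This was 2.35-fold (log2 1.23 ± 0.33, limma adjusted p = 0.0057). After centring the log2 differences from control were 2.27 in RANKL 3 d and 1.80 in LPS 4 h, and these groups were not tested against each other. By 3 d of LPS the level was 0.262, 0.258 and 0.345 FPKM, below each control sample, but the difference was not called (log2 −0.49, limma adjusted p = 0.27). In order of mean level, RANKL 3 d (3.14 ± 1.30, SD, n = 3) stood above LPS 4 h (1.25 ± 0.54), and the sample ranges of these groups overlapped slightly, at 1.73 and 1.82 FPKM. RANKL 4 h (0.456 ± 0.074) and control (0.446 ± 0.078) did not differ beyond their spread, and LPS 3 d (0.288 ± 0.049) was lowest.

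*Pprc1*, which encodes a relative of the PGC-1 proteins induced early when cells leave rest, took another course. It was at 8.11, 11.1 and 10.7 FPKM in control and 4.64, 6.03 and 6.20 in LPS 4 h, without overlap. It fell by 0.82 on the log2 scale (SE 0.21, limma adjusted p = 0.0039), but by only 0.25 after centring, which was not called. *Ldb1*, whose exons share positions with *Pprc1* on the other strand, went from 23.8 to 25.8 FPKM in control to 7.24 to 8.44 in LPS 4 h. The part of *Ldb1* reads in the *Pprc1* value was not tested. In RANKL 3 d *Pprc1* was at 6.89 to 8.85 FPKM, which overlapped with control, and in LPS 3 d at 7.26 to 11.96. *Ppargc1a* had 0 to 4 fragments per sample in control, 1 to 6 in RANKL 4 h, 0 to 2 in RANKL 3 d, 1 to 4 in LPS 4 h and 5 to 7 in LPS 3 d, too few to read a change from.

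Neither nuclear factor was called against control with all samples in the fit. *Esrra*, the nuclear receptor through which PGC-1 proteins act on many mitochondrial genes, had group means of 15.9 to 22.0 FPKM and was called in none of the comparisons with control. Its log2 differences were 0.00 (RANKL 4 h), −0.14 (RANKL 3 d), −0.33 (LPS 4 h) and 0.13 (LPS 3 d), each with an SE of 0.185, and the 95% intervals reached from −0.72 to 0.53. After centring the LPS 4 h difference turned to 0.24 (limma adjusted p = 0.36). *Esrra* overlapped between control and each other group. Its neighbour on the other strand, *Trmt112*, was at 19.3 to 22.6 FPKM in control and at 27.3 to 41.2 in LPS 3 d, and its part in the *Esrra* value was not tested.

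*Nrf1*, the factor that binds GCGCATGC-like sites, was at 2.44, 3.04 and 3.28 FPKM in control. RANKL 4 h (2.63 to 2.83), RANKL 3 d (2.58 to 2.75) and LPS 4 h (2.65 to 2.95) all lay within the control range. The log2 difference in LPS 4 h was −0.05, and 0.52 after centring (limma adjusted p = 0.040), which was under the fold limit. In LPS 3 d it was at 5.63, 4.48 and 2.58 FPKM, with the lowest value in the library that stood apart. The log2 difference in LPS 3 d was 0.46 ± 0.22 (SE, limma adjusted p = 0.12) with all 3 samples and 0.77 (limma adjusted p = 0.0016) without replicate 3.

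*Tfb2m*, the transcription factor that melts mitochondrial promoters, rose with RANKL at 3 d and was lower after 4 h of LPS. Control was at 2.57, 3.86 and 3.55 FPKM, and RANKL 3 d at 6.20, 5.31 and 6.23, with no overlap. The rise was 1.78-fold (log2 0.83 ± 0.19, SE; limma adjusted p = 0.0058), and 0.61 on the log2 scale after centring. LPS 4 h was at 1.60, 2.30 and 2.22 FPKM, below each control sample, and the fall of 0.68 on the log2 scale (SE 0.19) had a limma adjusted p of 0.0078. That call was lost after centring (−0.11), with a pseudocount of 1 (−0.51) and without replicate 2 of control (−0.56) or replicate 1 of LPS 4 h (−0.52). RANKL 4 h (3.41 ± 0.41, SD) and LPS 3 d (3.09 ± 0.39) did not differ from control (3.33 ± 0.68) beyond their spread.

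*Polrmt*, the polymerase itself, was the gene that fell furthest with LPS at 4 h. It was at 5.19, 6.38 and 6.79 FPKM in control and 2.11, 2.66 and 2.69 in LPS 4 h. No sample overlapped, and the level in LPS 4 h was 2.40-fold lower (log2 −1.26 ± 0.17, SE; limma adjusted p = 3.6e-05), with −0.70 left after centring (adjusted p = 0.0012). At 3 d of LPS it was at 9.49, 8.25 and 6.35 FPKM, overlapping with control only through the sample that stood apart (log2 0.38, limma adjusted p = 0.10; 0.53 and 0.018 without that sample, a fold below 1.5). RANKL 3 d was at 6.86, 7.14 and 7.78 FPKM, just above the highest control sample, and was not called (log2 0.25, limma adjusted p = 0.28). After centring this difference was 0.03 (limma adjusted p = 0.88).

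*Tfam*, the packing protein of mitochondrial DNA, was called in none of the comparisons with control. Control was at 6.29, 5.67 and 4.84 FPKM and RANKL 3 d at 6.74, 8.04 and 7.72, all above control. The log2 difference was 0.42 ± 0.16 (SE, limma adjusted p = 0.066) and 0.20 after centring. LPS 4 h (3.85 to 4.88 FPKM) and LPS 3 d (4.08 to 5.70) overlapped with control, and the LPS 4 h difference of −0.31 (log2) turned to 0.26 after centring. Of the 3 genes of mitochondrial transcription, *Tfb2m* was thus called higher in RANKL 3 d. *Tfam* and *Polrmt* lay above the control samples without passing the test, and after centring their log2 differences were 0.20 and 0.03. Whether the 3 changes differ from each other was not tested.

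Of the creatine kinases, *Ckb* was the most abundant of the 10 genes in every group. It was at 109, 202 and 171 FPKM in control and 126, 205 and 182 in RANKL 4 h. In RANKL 3 d it rose to 502, 359 and 948 FPKM, each above the highest control sample, but with the widest spread of the called genes relative to its change. The rise was 3.57-fold (log2 1.84 ± 0.54, SE; limma adjusted p = 0.020), with a 95% interval from 1.60-fold to 7.99-fold. The call was lost without replicate 1 of control (log2 1.58, limma adjusted p = 0.083) and without replicate 3 of RANKL 3 d (log2 1.45, adjusted p = 0.088). LPS 4 h was at 66.5, 116 and 101 FPKM, overlapping with control (log2 −0.76, limma adjusted p = 0.24; −0.19 after centring).

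At 3 d of LPS *Ckb* was at 21.4, 41.6 and 144 FPKM, and the highest of these, in the library that stood apart, lay within the control range. The difference of −1.62 on the log2 scale (SE 0.54, limma adjusted p = 0.032) became −2.37 (adjusted p = 0.00071) without that library. The call was lost without replicate 2 or 3 of control, without replicate 1 or 2 of LPS 3 d, and in a fit of these 2 groups alone, with adjusted p from 0.078 to 0.16. In order of mean level, RANKL 3 d (603 ± 307 FPKM, SD, n = 3) was followed by RANKL 4 h (171 ± 41) and control (160.5 ± 47.5), which did not differ beyond their spread, then LPS 4 h (94.4 ± 25.3) and LPS 3 d (68.9 ± 65.6), which overlapped as well. GENCODE names 2 pseudogenes of *Ckb*, and how reads shared with them were counted is not given in the sources used here.

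*Ckmt1* was read almost only in RANKL 3 d. The recovered fragments were 0, 3 and 0 in control, 1, 0 and 0 in RANKL 4 h, 0 in each LPS 4 h sample and 0, 1 and 0 in LPS 3 d, against 51, 24 and 85 in RANKL 3 d. The level in RANKL 3 d was 1.52, 0.681 and 2.45 FPKM, above all 12 samples of the other groups. Over pooled fragments the ratio of RANKL 3 d to control was 55.6 (95% counting interval 18.7 to 272), and against LPS 4 h, with no fragment, RANKL 3 d was at least 55.9-fold higher with a floor of 3 fragments over the group. These intervals cover counting error only. The fitted difference from control was 3.597 on the log2 scale and depended on the pseudocount, from 1.25 to 6.04 over the alternatives. No p is given for it, since the gene passed the filter on low values only through RANKL 3 d. *Strc*, on the other strand, was listed at 0 in all 3 RANKL 3 d samples. Compared per kilobase, *Ckb* in RANKL 3 d exceeded *Ckmt1* (603 against 1.55 FPKM on average).

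Within RANKL 3 d, *Ckb*, *Ckmt1*, *Ppargc1b*, *Tfb2m* and *Esrra* were each highest in replicate 3 and lowest in replicate 2. *Esrra* was not called against control, so this order was not limited to genes called higher in RANKL 3 d. *Pprc1*, *Nrf1*, *Tfam* and *Polrmt* were each lowest in replicate 1. Of the 10 osteoclast genes, 9 were highest in replicate 3 and 10 were lowest in replicate 2, with sums of 3168, 1721 and 5474 FPKM in replicates 1 to 3. Stromal genes had another order, with sums of 1988, 886 and 423 FPKM, and were lowest in the sample where *Ckb* was highest. With 3 samples these orders are a description, and the part of cell makeup in them was not tested.

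RANKL and LPS at 3 d were compared directly. *Ppargc1b*, *Tfb2m* and *Ckb* were called higher in RANKL 3 d, and none lower, of the 8 genes other than *Ckmt1*, against 23.3% higher and 12.8% lower among all tested genes. *Ppargc1b* differed 7.86-fold (log2 2.98 ± 0.33, SE; limma adjusted p = 1.0e-05) and *Ckb* 10.98-fold (log2 3.46 ± 0.54, adjusted p = 0.00017). Without replicate 3 of LPS 3 d these were 3.08 and 4.21 on the log2 scale. *Tfb2m* differed 1.89-fold (log2 0.92 ± 0.19, limma adjusted p = 0.0016). *Tfam* was 1.48-fold higher with a limma adjusted p of 0.011, under the fold limit, and no sample overlapped (6.74 to 8.04 against 4.08 to 5.70 FPKM). *Nrf1* was at −0.57 on the log2 scale (limma adjusted p = 0.051), and at −0.88 (adjusted p = 0.00047) without replicate 3 of LPS 3 d. It was called lower in RANKL 3 d in that fit and, with all samples, after centring (−0.71, limma adjusted p = 0.0064), where 17.4% of tested genes were called lower.

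Against the 4 h samples of the same stimulus, RANKL 3 d had *Ppargc1b*, *Tfb2m* and *Ckb* called higher and none lower of the same 8 genes, where 16.4% of tested genes were called higher and 6.83% lower. The log2 differences were 2.46 for *Ppargc1b*, 0.78 for *Tfb2m* and 1.73 for *Ckb*. After centring (9.72% of tested genes higher, 11.5% lower), *Tfb2m* (0.56) and *Ckb* (1.51, limma adjusted p = 0.062) were no longer called and *Pprc1* was called lower (−0.74). *Ckb* was also not called without replicate 1 or 3 of RANKL 4 h, or without replicate 1 or 3 of RANKL 3 d (limma adjusted p 0.053 to 0.11). LPS 3 d against LPS 4 h, a comparison added after the values were seen, had *Pprc1* (log2 0.83), *Tfb2m* (0.59) and *Polrmt* (1.64) called higher and *Ppargc1b* (−1.72) lower, where 44.2% of tested genes were called higher and 13.9% lower. The median gene moved by 0.52 in this comparison, and centring took 0.65 from every difference (18.8% of tested genes then higher, 27.5% lower). After centring, *Polrmt* (0.99) and *Ppargc1b* (−2.37) were still called, *Pprc1* (0.18) and *Tfb2m* (−0.06) were not, and *Ckb* was called lower (−1.51). Without replicate 3 of LPS 3 d and without centring, *Esrra* (0.59) and *Nrf1* (0.82) were called higher, *Ckb* (−1.62) was called lower, and *Tfb2m* (0.53) was not called. The shares over all genes in that fit are not given. With all samples, the centred differences of *Esrra* and *Nrf1* were −0.19 and −0.14 (limma adjusted p = 0.42 and 0.55), neither of them called.

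Other genes of these pathways were taken from 4 lists that hold none of the 10. Of 22 regulators of biogenesis, 19 were tested. In RANKL 3 d, 2 of them were called higher and 3 lower (16.6% and 7.54% of all tested genes), with a median log2 difference of −0.03 against 0.16 over all tested genes. After centring, none was called higher and 3 were called lower (9.94% and 12.2% of all tested genes). The largest fall was that of *Pparg*, the nuclear receptor of fat storage, from 12.8 ± 2.9 (SD, n = 3) to 4.08 ± 0.45 FPKM (log2 −1.60, limma adjusted p = 0.00013). The largest rise was that of *Gabpb2*, a subunit of the ETS-family GABP complex (5.79 ± 1.94 to 9.56 ± 0.77 FPKM, log2 0.77, adjusted p = 0.035), whose call was lost after centring and in several fits without 1 sample. In LPS 4 h, 1 was called higher and 8 lower, where 39.7% of all tested genes were lower, and 7 were higher and 5 lower after centring, where the shares over all tested genes were 15.9% and 13.0%. *Crtc2*, a coactivator of CREB, rose from 16.4 ± 1.2 to 27.9 ± 5.6 FPKM (log2 0.75, limma adjusted p = 0.0012). *Rxra*, the partner of many nuclear receptors, fell from 26.7 ± 4.5 to 4.52 ± 0.62 FPKM (log2 −2.53, limma adjusted p = 1.4e-07), and both were called after centring too. In LPS 3 d, 3 were higher and 1 lower, against 13.0% and 14.4% of all tested genes. Without replicate 3 the counts were 6 and 1, and the shares over all genes in that fit are not given. Those called with all samples included *Ppard* (9.54 ± 1.79 to 17.7 ± 2.1 FPKM, log2 0.89). The gene called lower was again *Pparg* (1.92 ± 0.43 FPKM, log2 −2.67).

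All 28 genes of mitochondrial DNA maintenance and transcription were tested. RANKL at 3 d had 8 called higher and 2 lower, against 16.6% and 7.54% of all tested genes, with a median log2 difference of 0.19 against 0.16. After centring, 5 were higher and 4 lower, against 9.94% and 12.2%. *Mterf2*, a mitochondrial transcription termination family member, rose from 0.215 ± 0.070 to 0.705 ± 0.314 FPKM (log2 1.29, limma adjusted p = 0.019), a call lost with either other pseudocount and without replicate 2 of control or replicate 1 or 3 of RANKL 3 d. *Pnpt1*, a mitochondrial RNA exonuclease, fell from 22.1 ± 2.1 to 13.99 ± 1.81 FPKM (log2 −0.66, limma adjusted p = 0.0078), which was not called with samples scaled to equal sums or without replicate 1 of RANKL 3 d. LPS at 4 h had none called higher and 16 lower, against 39.7% of all tested genes lower, with a median of −0.78 against −0.52. After centring, 2 were higher and 5 lower, against 15.9% and 13.0%. *Mgme1*, the exonuclease of mitochondrial DNA replication, fell from 3.70 ± 0.39 to 0.965 ± 0.075 FPKM (log2 −1.83, limma adjusted p = 1.6e-06; −1.27 after centring). In LPS 3 d, 4 were higher and 2 lower, against 13.0% and 14.4% of all tested genes. Without replicate 3 the counts were 8 and 2, and the shares over all genes in that fit are not given. *Polg2*, the accessory subunit of the mitochondrial DNA polymerase, rose from 0.912 ± 0.282 to 2.91 ± 0.69 FPKM (log2 1.59). *Dna2*, a nuclease and helicase of nucleus and mitochondrion, fell from 4.714 ± 1.998 to 1.43 ± 0.29 FPKM (log2 −1.59).

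Of 16 genes of mitochondrial import and chaperones, none was called in RANKL 3 d by limma or limma voom, and 5 had an unadjusted p under 0.05. Of all tested genes, 16.6% were called higher by limma and 7.54% lower. The median log2 difference of the 16 was 0.21, against 0.16 over all tested genes. In LPS 4 h, 4 were called lower and none higher, against 39.7% lower over all tested genes, and 1 higher and none lower after centring, against 15.9% and 13.0%. In LPS 3 d, where 13.0% of all tested genes were called higher and 14.4% lower, 1 was called higher and none lower. This was *Clpp*, a matrix protease, which went from 17.6 ± 2.0 to 36 ± 17 FPKM (log2 0.91, limma adjusted p = 0.017). That call was lost in a fit of these 2 groups alone, without replicate 3 of control and without replicate 1 or 2 of LPS 3 d. RANKL at 4 h had none of the 72 tested genes of the 4 lists called by limma, with 5 at an unadjusted p under 0.05 and none called by limma voom. Of all tested genes, only 0.111% were called higher there by limma and 0.00852% lower.

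**Figure D3:**
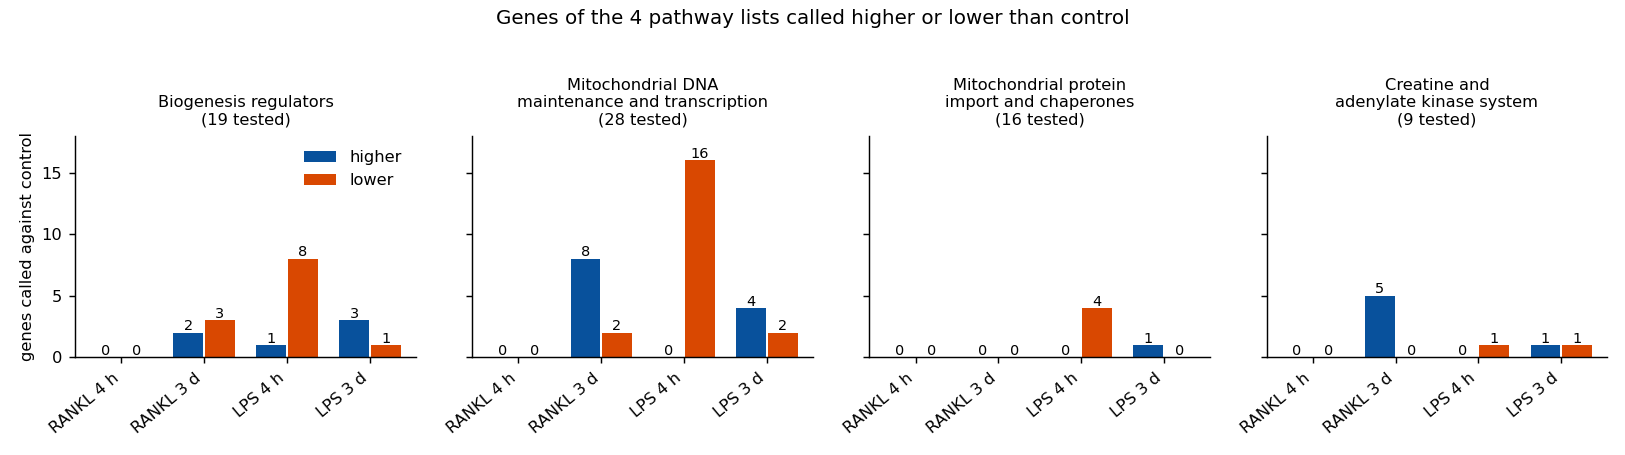
Number of genes called higher (blue) or lower (orange) than control (y axis) in each of the 4 comparisons (x axis), for 4 lists of pathway genes that hold none of the 10. In LPS 4 h 16 of 28 genes of mitochondrial DNA maintenance and transcription were lower, where 39.7% of all tested genes were. After centring 5 of them were lower, where 13.0% of all tested genes were. In RANKL 3 d 5 of 9 genes of the creatine and adenylate kinase list were higher (16.6% of all tested genes), and 3 after centring (9.94%).

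The creatine and adenylate kinase list had 11 genes, of which 9 were tested (*Ckmt2* and *Slc16a12* were too low). In RANKL 3 d, 5 were called higher and none lower, with a median log2 difference of 0.71, against 16.6% of all genes called higher; 3 were called after centring, against 9.94%. Among them were adenylate kinases, which even out ATP, ADP and AMP. *Ak4*, of the mitochondrial matrix, had 1.30, 0.689 and 0.130 FPKM in control and 10.3, 10.9 and 10.7 in RANKL 3 d (log2 4.08 ± 0.53, SE; limma adjusted p = 0.00013). The RANKL 3 d samples of *Ak4* lay close together although the control samples were spread widely. *Ak1* rose from 1.48 ± 0.62 to 4.87 ± 1.94 FPKM (log2 1.66, limma adjusted p = 0.013) and *Ak5* from 0.208 ± 0.038 to 0.787 ± 0.303 (log2 1.48, adjusted p = 0.0049). The call of *Ak1* was lost without replicate 3 of control or replicate 1 of RANKL 3 d, and that of *Ak5* with a pseudocount of 1. *Ak3*, of the matrix, rose from 15.9 ± 2.3 to 25.2 ± 3.5 FPKM (log2 0.66), a call lost after centring and without replicate 3 of RANKL 3 d or replicate 1 of control.

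The genes that make and take up creatine did not pass the test in RANKL 3 d. *Gatm* and *Gamt*, the enzymes of creatine synthesis, were at 36.6 ± 9.6 and 9.15 ± 2.15 FPKM in control and at 34.2 ± 7.4 and 14.9 ± 3.2 in RANKL 3 d. *Gamt* had a log2 difference of 0.71 (limma adjusted p = 0.064), which was called with the replicate number as a block (adjusted p = 0.016) and was 0.49 after centring (adjusted p = 0.22). *Slc6a8*, the creatine transporter, was at 56 ± 12 FPKM in control and 53.5 ± 10.4 in RANKL 3 d, and *Ckm*, the muscle creatine kinase, was at 0.138 and 0.268 FPKM. In LPS 4 h, *Ak3* was called lower (9.18 ± 2.46 FPKM, log2 −0.81), a call lost after centring and without replicate 1 of LPS 4 h, and *Gamt* (log2 −0.65, limma adjusted p = 0.052) was not called, but was with the replicate block (adjusted p = 0.013), and stood at −0.09 after centring (adjusted p = 0.84). *Slc6a8* was not called there either (log2 −0.70, limma adjusted p = 0.050; −0.13 after centring, adjusted p = 0.73). In LPS 3 d, *Ak4* was called higher (2.44 ± 1.07 FPKM, log2 1.91, limma adjusted p = 0.013; lost without replicate 2 of LPS 3 d and in a fit of these 2 groups alone) and *Gatm* lower. *Gatm* was at 8.43, 10.2 and 9.60 FPKM in LPS 3 d against 42.0, 42.3 and 25.6 in control (log2 −1.92 ± 0.22, SE; limma adjusted p = 4.1e-05), with no overlap. *Slc6a8* in LPS 3 d was at 108, 111 and 49.1 FPKM, and it was called higher only without replicate 3 (log2 0.98, limma adjusted p = 0.0044).

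**Figure D4:**
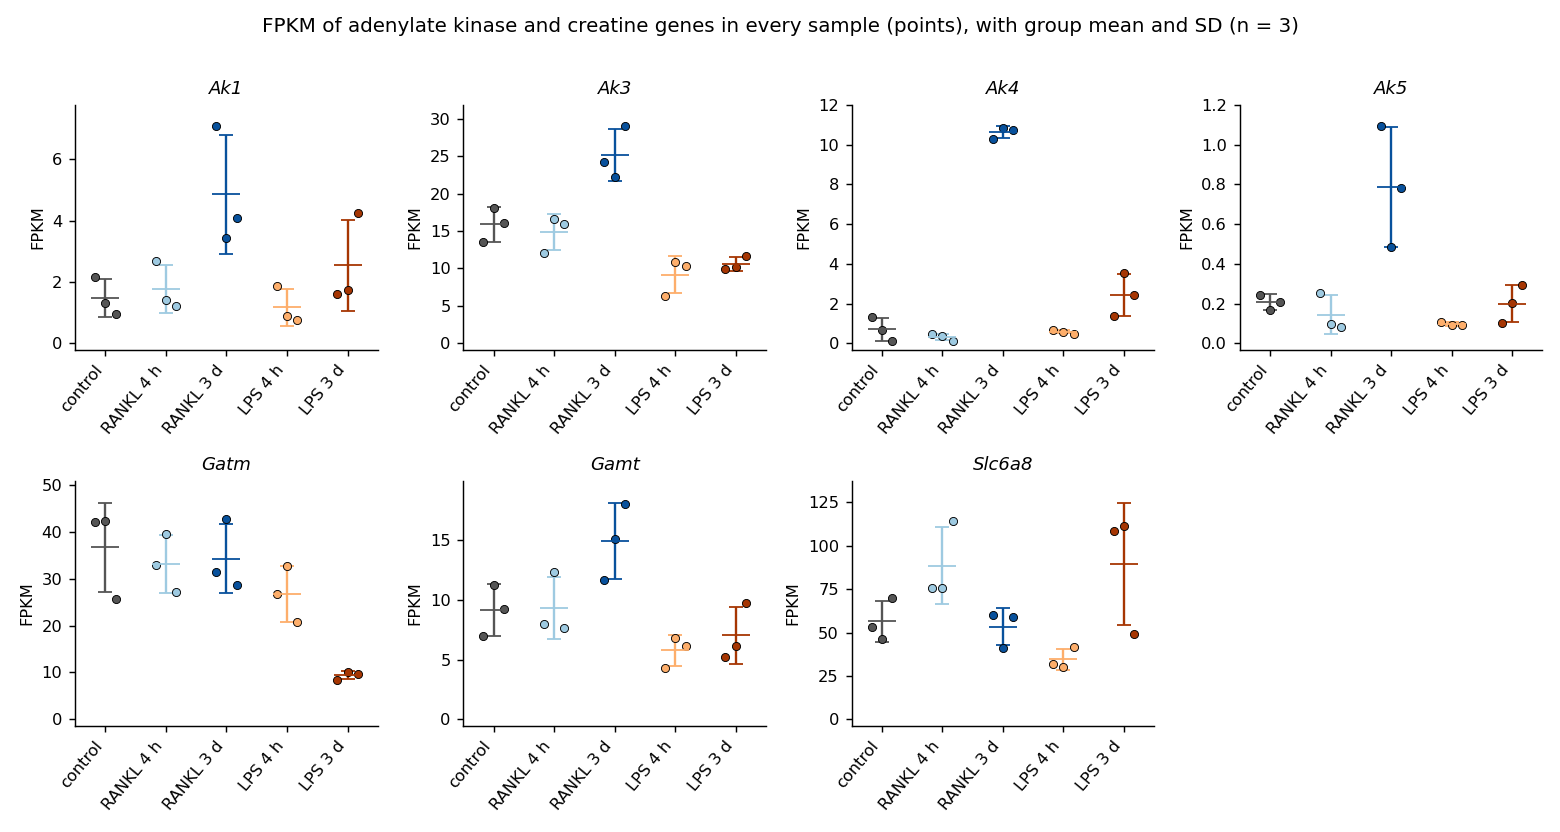
FPKM (y axis, linear, own scale per gene) of 4 adenylate kinase genes and 3 creatine genes in the 5 groups (x axis); points are samples, lines are means and bars SD (n = 3). *Ak4* stands at 10.3 to 10.9 in RANKL 3 d against at most 1.30 in control, and *Gatm* at 8.43 to 10.2 in LPS 3 d.

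The genes with the most similar set of 4 log2 differences from control were looked up among 9485 others with a mean of at least 1 FPKM, by root mean square distance. For *Ppargc1b* they were *Adrbk2* (0.29), *Atp2b4* (0.31) and *Tnn* (0.33), and for *Ckb* they were *Lat* (0.24), *LOC108168067* (0.26) and *Nkain1* (0.26). *Tfam* lay close to *Immt* and *Slc25a1* (0.028 and 0.035), and *Tfb2m* to *Rab31*, *Ndufs1* and *Pafah1b3* (0.057 to 0.072). *Polrmt* lay close to *Fam193b*, *Ccp110* and *Bloc1s3* (0.046 to 0.063), *Pprc1* to *Atf1*, *Ctsd* and *Mpdu1* (0.049 to 0.057), *Esrra* to *Ppib*, *Ddx47* and *Exosc9* (0.016 to 0.029) and *Nrf1* to *Ccnl2*, *Hook2* and *Dhx38* (0.023 to 0.041). The distances for *Ppargc1b* and *Ckb* were thus wider than for the others, and the 4 differences of a gene share their control samples.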

How the data were processed

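The authors deposited a table of FPKM per gene and sample, made with StringTie and Ballgown by their methods; the submitters' processing notes name StringTie and the builds GRCm38.p4 and mm10. RNA was purified and libraries were made with a SMARTer kit, per the labels. The aligner and the strand setting are not given in the sources used here. The last complete gene of the table is *Tti2*, 1 line after it is incomplete, and genes beyond were not analysed here. FPKM values of a gene were taken as whole multiples of a step. This gave the fragments behind them for each of the 14485 genes seen in 3 or more samples. A step was accepted only where values lay within 0.01 of a whole number, so the 100% of values found within it is no separate check.

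Tests used limma 3.58.1 in R 4.3.3 on log2(FPKM + 0.1) of the 11743 genes whose mean was 0.1 FPKM or more (lmFit, eBayes with a trend, 5 groups, no block, Benjamini-Hochberg adjustment). The study's methods call genes at the same fold limits with an unadjusted p from a count model. The fit and the recovery were tested on simulated data. Samples were grouped by their titles. The 10 genes, the lists and the rule for named genes (all 10; in each list the largest called rise and fall against control, and all creatine genes; the 3 nearest genes by pattern; 1 list gene and 1 nearest gene are not reported here) were chosen with earlier results of these data known. Libraries of a group differed by 6.76 to 49.0 times sampling noise, more than 1 library sequenced again would give. Whether libraries were made from the same RNA or culture cannot be told from this. Deviations from the group mean correlated between same-numbered samples of control and RANKL 4 h (0.71 to 0.84), RANKL 3 d (0.14 to 0.32) and LPS 4 h (0.44 to 0.62) over 9486 genes. For control and LPS 3 d the values were −0.03 to 0.18, which overlaps with RANKL 3 d. Values for samples of different numbers are not given here, and whether same-numbered samples are pairs was not tested. Alternatives covered the pseudocount (1, 0.01), filter, scaling, groups in the fit, replicate block, trend, p adjustment, fold limit, limma voom on recovered fragments and leaving out each sample. Promoter windows are RefSeq's (GRCm38.p6), gene positions GENCODE M21's. Python 3.11.15 with scipy 1.17.1, numpy 2.4.6 and pandas 2.3.3 was used for the remaining steps and matplotlib 3.10.9 for figures.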

Additional observations from a re-analysis of the deposited data

Results flagged for a closer look

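Several genes differed between the 2 times of a stimulus by a direct test in limma. From 4 h to 3 d of RANKL, *Ppargc1b* was higher by 2.46, *Tfb2m* by 0.78 and *Ckb* by 1.73 on the log2 scale. Of all tested genes, 16.4% were called higher in this comparison and 6.83% lower. After centring, *Tfb2m* (0.56) and *Ckb* (1.51, limma adjusted p = 0.062) were no longer called. *Ckb* was also not called in several fits without 1 sample. The fitted difference of *Ckmt1* was 3.77, but it is not counted, since that gene was tested only because of its level at 3 d of RANKL. From 4 h to 3 d of LPS, *Ppargc1b* fell by 1.72, and *Pprc1* was higher by 0.83, *Tfb2m* by 0.59 and *Polrmt* by 1.64, while the median of all tested genes was higher by 0.52. Of all tested genes, 44.2% were called higher there and 13.9% lower. After centring, *Pprc1* (0.18) and *Tfb2m* (−0.06) were not called. *Ppargc1b* was thus higher at the later time under RANKL and lower at the later time under LPS, and the difference between these 2 time courses was not itself tested.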

How the results depend on the processing

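*Ckmt1* passed the filter only through RANKL 3 d and is left out of the calls given here for that group. Of the other tested genes, *Ppargc1b*, *Tfb2m* and *Ckb* were called higher in RANKL 3 d than in control as tested. Of all tested genes, 16.6% were called higher there and 7.54% lower. *Ppargc1b* and *Tfb2m* stayed called under every alternative. The call of *Ckb* was lost without replicate 1 of control and without replicate 3 of RANKL 3 d. None of the other genes gained a call. In LPS 4 h, 4 of the 9 tested genes were called against control as tested, where 8.43% of all tested genes were higher and 39.7% lower. With samples centred on their median gene the count was 2, where 15.9% were higher and 13.0% lower. It was 3 with a pseudocount of 1 and 3 to 4 without each sample in turn. In LPS 3 d the count was 1 as tested, where 13.0% of all tested genes were higher and 14.4% lower. It was 0 in a fit of LPS 3 d and control alone and 0 to 2 without each sample in turn. Shares over all tested genes under the other alternatives are not given. *Tfb2m* between LPS 3 d and LPS 4 h went from 0.59 to -0.0601 (log2) with centring, which took 0.65 from every difference in this comparison. Of 749 values of the 9 tested genes under alternatives other than leaving out a sample, 732 stayed as tested, called or not called. Of the rest, 9 lost a call, 7 gained one and 1 changed sign. Of 945 without 1 sample, 921 stayed as tested, 15 lost a call and 9 gained one. Most of these values were not called as tested. Some alternatives only loosened the rule, and many samples left out were of groups outside the comparison. The share that stayed is therefore no measure of how firm the calls are. The replicate block took same-numbered samples of all 5 groups together, also those of LPS 3 d, which did not all deviate with control. It left the calls in RANKL 3 d as tested, and the count of these genes called at 4 in LPS 4 h and at 1 in LPS 3 d. No call of these genes changed with the block. Depth limited what can be said of *Ppargc1a* and of *Ckmt1* outside RANKL 3 d, each with at most 7 fragments per sample there.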
